A study of Mus musculus with 8 samples.

Results

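The genes followed here encode titin and 8 proteins that hold or decorate the titin and myosin filaments of the heart sarcomere. They were chosen by gene symbol: Ttn, Obsl1, Myom1, Myom2, Myom3, Mybpc3, Mybpc2, Ldb3 and Actn2, which are 9 of the 21970 genes in the deposited table. The table came from poly(A) RNA sequencing of whole ventricles from C57BL/6J mice, with no treatment or engineered allele in the labels and 2 libraries for each of 4 postnatal stages named by the day after birth: P3, P6, P12, P24. Nothing in the labels says that the 2 libraries of a stage came from separate animals, so p-values measure the spread between these libraries. Y-linked reads, given below, differ within the pairs at P6, P12 and P24, so the libraries of those pairs did not share 1 animal as their only source; at P3 the spread may be technical. In the table the genes carry the Ensembl identifiers ENSMUSG00000051747 (Ttn), ENSMUSG00000026211 (Obsl1), ENSMUSG00000024049 (Myom1), ENSMUSG00000031461 (Myom2), ENSMUSG00000037139 (Myom3), ENSMUSG00000002100 (Mybpc3), ENSMUSG00000038670 (Mybpc2), ENSMUSG00000021798 (Ldb3) and ENSMUSG00000052374 (Actn2). Whole ventricle holds several cell types, and in bulk tissue fewer cells of a type and less RNA per cell cannot be told apart.

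A sarcomere is bounded by Z-discs, where thin filaments are anchored, and has the M-band at its centre, where thick filaments are cross-linked. Titin, the product of Ttn, reaches from Z-disc to M-band and acts as a molecular spring. In the maturing heart its splicing is known to move from longer, compliant forms to a shorter, stiffer form. The values here are sums over a whole gene and do not separate isoforms. Actn2 (alpha-actinin-2) cross-links actin and binds titin at the Z-disc, and Ldb3 (also called Cypher or ZASP) binds alpha-actinin there. Myom1 (myomesin), Myom2 (M-protein) and Myom3 form the bridges of the M-band, and Obsl1 links titin and myomesin. Mybpc3 and Mybpc2 are the cardiac and the fast skeletal forms of myosin-binding protein C, which sits on the thick filament.

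The stretch upstream of 3 of these genes is printed because each holds 1 match to the MEF2 consensus, the binding motif of a transcription factor family of muscle genes. These are the 250 bases before the annotated start, 5′ to 3′ on the gene's strand, from RefSeq on GRCm38.p6, and capitals mark the match.
Ttn chr2:76982548-76982797 (minus strand): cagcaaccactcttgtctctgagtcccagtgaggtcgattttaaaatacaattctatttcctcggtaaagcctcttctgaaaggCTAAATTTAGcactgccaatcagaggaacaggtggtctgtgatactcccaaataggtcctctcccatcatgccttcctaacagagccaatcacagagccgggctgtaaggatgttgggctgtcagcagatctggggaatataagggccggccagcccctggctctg
Myom3 chr4:135759465-135759714 (plus strand): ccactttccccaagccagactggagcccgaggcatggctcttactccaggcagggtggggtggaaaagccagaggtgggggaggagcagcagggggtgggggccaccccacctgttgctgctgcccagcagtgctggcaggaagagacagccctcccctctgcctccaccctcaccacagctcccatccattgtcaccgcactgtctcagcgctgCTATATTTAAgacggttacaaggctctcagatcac
Mybpc3 chr2:91117894-91118143 (plus strand): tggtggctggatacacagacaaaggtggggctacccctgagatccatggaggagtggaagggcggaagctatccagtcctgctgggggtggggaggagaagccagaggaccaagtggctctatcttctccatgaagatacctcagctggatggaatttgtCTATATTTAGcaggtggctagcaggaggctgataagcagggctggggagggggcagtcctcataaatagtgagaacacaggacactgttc
The match began 166 bases before the start in Ttn, 35 in Myom3 and 90 in Mybpc3. Windows were found for 8 of the 9 genes (Myom2 was not matched), so 3 of 8 held this motif, against 2.92% of 32851 windows of the same length. The CArG box, the motif of serum response factor, was in Myom1 and Ldb3 and in 1.47% of all windows. CATTCC was in Mybpc2 and in 12.6% of all windows, and TATAAA was in none of the 8 genes and in 12.4% of all windows. Both strands were searched, and the motifs were chosen after the sequences had been seen. A match is a stretch of letters, not a measured binding site.

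Each library held 23375967 to 28745112 reads in protein-coding genes, and a count of 0 allows a share of at most 1.28e-05% of reads (3 reads, counting error only). The 9 genes together took 0.996% to 1.61% of those reads. All 9 passed the filter on low values (a normalized count of at least 10 in at least 2 libraries), as did 14055 genes in all. The summed normalized count of 9 cardiomyocyte markers ran from 1501620 to 2456680, and that of 7 fibroblast markers from 57136 to 220486. The fibroblast sum was lowest at P24, where 5 of its 7 genes were lower than at P3 and 1, Dcn, was higher. Of 9 cardiomyocyte markers 4 rose from P3 to P24, and of 6 macrophage markers 5 rose, their sum going from 2725 and 3400.0 to 10827 and 10889.9. Of 6 smooth muscle and pericyte markers 1 rose and 3 fell, and of 6 endothelial markers 0 rose and 0 fell. Over all genes tested 18.7% rose and 18.2% fell from P3 to P24. Of 18 skeletal muscle markers, 8 passed the filter, and the sum over all 18 was only 298 to 514. Myf5 was at 0 in every library, while Myod1, Myog and Pax7 reached at most 4.06, 2.44 and 1.05. A sum over 5 atrial markers was 10818 in P3 replicate 1, 4103 in P3 replicate 2 and 804 to 4292 elsewhere. Of these, Myl7 was 4004 and 52.4 (P3), 17.2 and 708 (P6), and 19.3 to 131 at P12 and P24. Sln was 254 and 0 (P3) and 0 and 79.3 (P6), so the P6 pair differed in these 2 markers as well. The 2 P6 libraries stood further apart than other pairs, with a median absolute difference of 0.39 on the log2 scale against 0.118 to 0.154. Reads of 4 Y-linked genes numbered 5260 to 7182 in P6 replicate 1, P12 replicate 1 and P24 replicate 2, and at most 4 in the others. Fits without the P6 libraries and with a term for Y-linked reads are given with the results they change or where the P6 libraries are described. The part of the marker differences was not tested.

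Libraries also differed in how their values ran with gene length. The median log2 deviation from a gene's own mean, taken over the longest 10% of genes, was 0.19 and 0.10 (P3), 0.26 and -0.22 (P6), -0.17 and -0.30 (P12) and finally 0.07 and 0.08 (P24). The shortest 10% went the opposite way in every library. Both P12 libraries and P6 replicate 2 were thus low in long genes. This bears on Ttn first, since its gene model of 117334 bases is the 2nd longest of those tested; the next longest after it has 41619.

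Per length, these genes spanned a wide range of abundance with fixed places at the top and the bottom. Mybpc3 was highest in all 8 libraries, at 901 to 1100 FPKM (fragments per kilobase of gene, here on the same library scaling as the normalized counts), followed in all 8 by Actn2 at 348 to 646 FPKM. Ldb3 (106 to 158 FPKM), Myom1 (103 to 186 FPKM) and Myom2 (81.2 to 169 FPKM) traded places below them. Ttn had 13.3 to 39.3 FPKM and Obsl1 15.7 to 23.4 FPKM, and Obsl1 stood above Ttn in P6 replicate 2 and P12 replicate 1 alone. Mybpc2 (4.58 to 7.20 FPKM) and then Myom3 (0.29 to 0.73 FPKM) were lowest in every library. The 2 genes known mainly from skeletal muscle were therefore at the bottom of the order throughout.

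**Figure D1:**
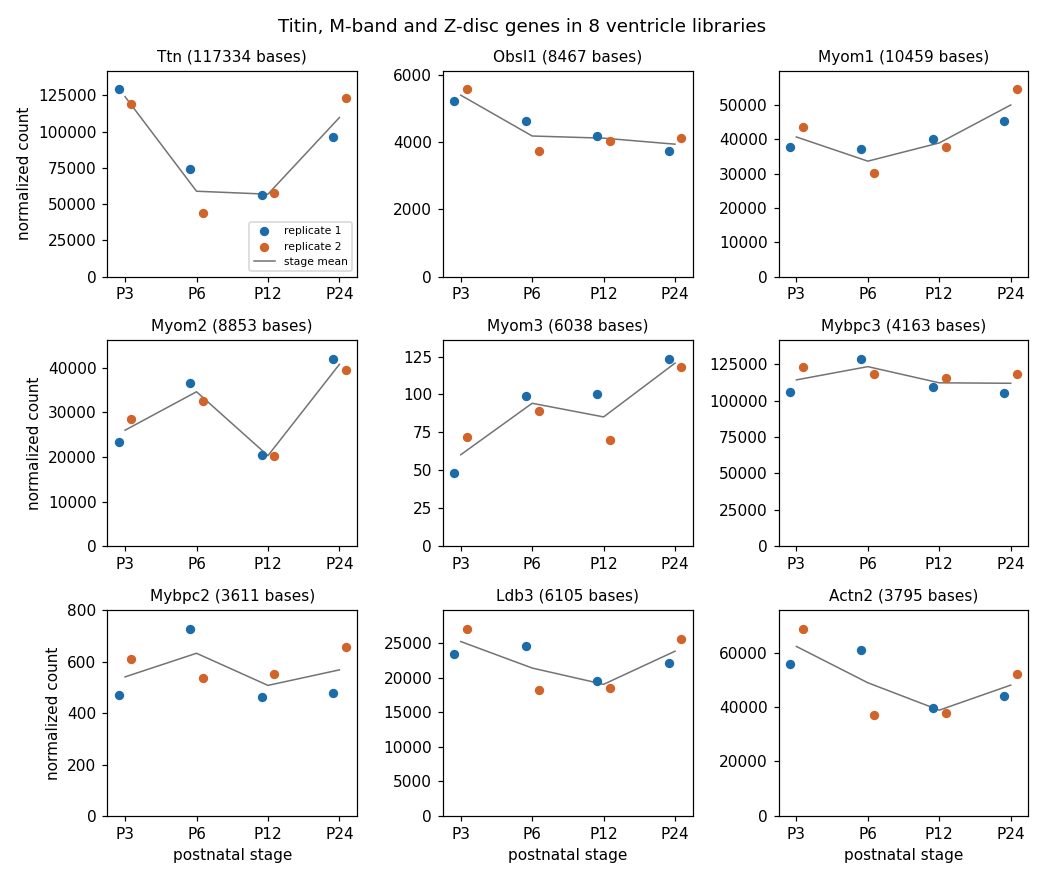
Normalized count of each of the 9 genes (y axes from 0, linear) by stage, with 1 point a library and a line through the stage means. Ttn was low at P12 and in P6 replicate 2, Myom2 was lowest at P12 and highest at P24, and Mybpc3 stayed between 105153 and 128394.

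Between P3 and P24, Myom2 and Myom3 rose, Obsl1 fell, and the other 6 genes did not pass the test. These are 2 of 9 higher and 1 of 9 lower, where 18.7% of all genes tested were higher and 18.2% lower (36.9% in either direction). The test was limma on log2(normalized count + 1) with Benjamini-Hochberg adjustment over 14055 genes at a threshold of 0.05. The median change of the 9 genes was -0.03 on the log2 scale, against -0.02 over all genes. The 6 stage comparisons share libraries and are not independent of each other.

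Ttn had the widest range of stage means of the 9 genes, 2.18-fold, and went down and then up again. Its normalized count was 129140.2 and 119191 (P3), 74019 and 43795 (P6), 56092 and 57641 (P12) and finally 96354 and 123153 (P24). P3 and P24 overlapped, P6 and P12 overlapped, and both P3 and both P24 libraries lay above all P6 and P12 libraries. The fall from P3 to P12 was -1.13 ± 0.27 (log2 change ± SE, n = 2 libraries a stage; limma, adjusted p = 0.0182), and the rise from P12 to P24 was 0.94 ± 0.27 (adjusted p = 0.0441, limma). From P6 to P24 Ttn rose by 0.94 (limma adjusted p = 0.0303). Its P3 to P6 change of -1.12 missed the threshold (limma adjusted p = 0.1), as did P6 to P12 at -0.00 (limma adjusted p = 0.998). P3 and P24 differed by -0.19 with a 95% interval of -0.79 to 0.42 (limma adjusted p = 0.615). For comparison, 24.4% of all genes were called for P3 to P12 (13% lower), 16.3% for P12 to P24 (8.2% higher), 26.7% for P6 to P24 (13% higher), 0.84% for P3 to P6 and 2.26% for P6 to P12.

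Long genes as a group were high and low in nearly the same libraries as Ttn. Ttn deviated from its own mean by 0.67 and 0.55 (P3), -0.14 and -0.89 (P6), -0.54 and -0.50 (P12) and finally 0.25 and 0.60 (P24), on the log2 scale. The medians of 73 other genes of at least 20000 bases with a mean of at least 1000 were 0.19 and 0.07, 0.28 and -0.39, -0.23 and -0.38, and 0.16 and 0.18 in the same order. Ttn thus had the sign of these genes in 7 of 8 libraries, the exception being P6 replicate 1. It swung more widely than their median, but a median evens out single genes, and their spread is not given here. Correcting for length gave different answers by how it was done. With a smooth trend removed, Ttn changed by -0.22 from P3 to P12 (limma adjusted p = 0.372) and by 0.13 from P12 to P24 (limma adjusted p = 0.624), neither past the threshold, while P6 to P24 stayed called at 0.56 (limma adjusted p = 0.04). With a straight line removed, the P3 to P12 change was 0.00 (limma adjusted p = 0.997). Both curves were fitted over all genes tested, Ttn included, so they are not independent of its own values. Few genes lie near its length: 1 is longer, and the next shorter has 41619 bases. With the median of each 10% of genes by length removed, an alternative added after the data were seen, Ttn fell by 0.75 from P3 to P12 (limma adjusted p = 0.0163) and rose by 0.63 from P12 to P24 (limma adjusted p = 0.0389). That setting gives Ttn the median of all genes from 9953 to 123179 bases, nearly all of them far shorter. In the P12 libraries this median was -0.17 and -0.30, nearer 0 than the -0.23 and -0.38 of the 73 long genes. The smooth trend at the length of Ttn was -0.46 and -0.62 in the P12 libraries, below the median of the 73 long genes. Which setting suits Ttn was not tested. Under that setting P3 to P6 also passed (log2 -1.003, limma adjusted p = 0.0336). The part of the length trend in the Ttn result was not tested further.

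**Figure D2:**
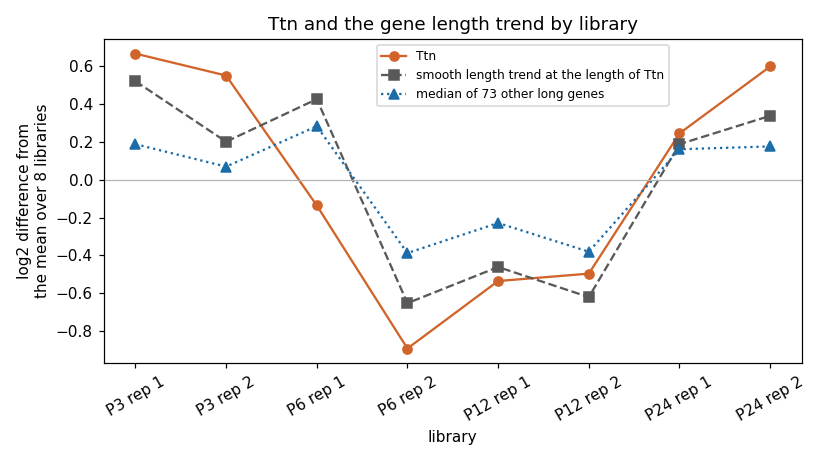
Log2 deviation from the gene's mean over 8 libraries (y axis) in each library, for Ttn (solid line), for the smooth length trend at its length (dashed) and for the median of 73 other long genes (dotted). All 3 lie below 0 in P6 replicate 2 and both P12 libraries, and in P6 replicate 1 Ttn alone lies below 0, at -0.14.

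Among the M-band genes, Myom2 changed in the most comparisons. Its normalized count was 23366 and 28591 (P3), 36644 and 32531 (P6), 20407 and 20151 (P12) and finally 41891 and 39547 (P24). No pair of stages overlapped: P24 was highest, then P6, then P3, and P12 was lowest. Myom2 rose 2.01-fold from P12 to P24 (log2 1.01 ± 0.17, limma adjusted p = 0.00521) and by 0.66 ± 0.17 from P3 to P24 (limma adjusted p = 0.0151). The other 4 stage pairs missed the threshold on the authors' scaling, with log2 changes of 0.42 for P3 to P6 (limma adjusted p = 0.29), -0.77 for P6 to P12 (0.0566), -0.35 for P3 to P12 (0.155) and 0.24 for P6 to P24 (0.346). With quantile scaling P6 to P12 (-0.90) and P3 to P12 (-0.64) passed as well, the latter also without both P6 libraries. With the smooth length trend removed both calls held, at 0.81 for P12 to P24 and 0.72 for P3 to P24. The P3 to P24 rise was lost with libraries scaled by total reads alone (0.31) or by quantiles (0.22).

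Myom1 was higher per length than Myom2 in 5 of 8 libraries, and its stage means spanned 1.49-fold against 2.01-fold for Myom2. Its normalized count was 37897 and 43489 (P3), 37109 and 30172 (P6), 40049 and 37862 (P12) and finally 45488 and 54537 (P24). Both P24 libraries lay above all others, and P3 and P12 overlapped. The P3 to P24 difference was 0.29, with a 95% interval of -0.13 to 0.72 (limma adjusted p = 0.253), and P6 to P24 was 0.57 (limma adjusted p = 0.0524), so neither passed. The P6 to P24 difference did pass with the smooth (0.55, limma adjusted p = 0.0247), straight (0.60) or stepwise (0.52) length trend removed, with a mean of at least 100, with DESeq2 and with the Y-linked term.

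Myom3 was scarce in ventricle, at 46 to 98 reads a library. Its normalized count was 48.5 and 72.0 (P3), 99.3 and 89.1 (P6), 100.1 and 70.3 (P12) and finally 123 and 118 (P24). P24 lay above every other stage and P3 partly overlapped P12. The rise from P3 to P24 was 2.02-fold (log2 1.02 ± 0.26, limma adjusted p = 0.015). Of the 8 skeletal muscle markers tested, 0 rose and 1 fell over the same interval, beside 18.7% and 18.2% of all genes tested. Single markers went both ways. Pvalb, tested and not called, stood at 4.22 and 2.18 (P3) against 14.9 and 14.8 (P24), and reached the filter's 10 only at P24. Myh8 stood at 57.0 and 52.4 (P3) against 0 and 0 (P24).

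Obsl1 went the other way. Its normalized count was 5219.7 and 5559 (P3), 4631 and 3722 (P6), 4187 and 4036 (P12) and finally 3742 and 4125 (P24). Both P3 libraries lay above the rest, and P12 overlapped both P6 and P24. It fell by 0.46 ± 0.15 on the log2 scale from P3 to P24 (limma adjusted p = 0.041), and P3 to P12, at -0.39, missed the threshold (limma adjusted p = 0.0871) but passed with scaling by total reads (-0.53) and with the Y-linked term (-0.47). Without both P6 libraries P3 to P12 passed too (-0.39, limma adjusted p = 0.00355).

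On the thick filament, Mybpc3 had the smallest span of stage means of the 9 genes on the authors' scaling. Its normalized count was 105599 and 122715 (P3), 128394 and 118109 (P6), 109158 and 115133 (P12) and finally 105153 and 118506 (P24). Only P6 and P12 did not overlap, and the highest stage mean was 1.10 times the lowest. The P3 to P24 difference was -0.03, with a 95% interval of -0.48 to 0.43 (limma adjusted p = 0.927), which became -0.49 with quantile scaling and -0.38 with scaling by total reads, neither past the threshold. Mybpc2 lay between 464 and 729 normalized counts, with all stages overlapping, and differed by 0.06 between P3 and P24 (95% interval -0.45 to 0.58, limma adjusted p = 0.849).

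At the Z-disc, Actn2 and Ldb3 were highest in mean at P3 and lowest at P12. Actn2 had normalized counts of 55782 and 68734 (P3), 60781 and 37037 (P6), 39785 and 37918 (P12) and finally 44125 and 51977 (P24). P3 lay above P12 and P24, while the 2 P6 libraries differed by 0.72 on the log2 scale and overlapped P3 and P24. The Actn2 change was -0.67 from P3 to P12 (limma adjusted p = 0.08) and -0.37 from P3 to P24 (95% interval -0.94 to 0.20, limma adjusted p = 0.281), and neither passed. With quantile scaling both did, at -1.02 (limma adjusted p = 0.0218) and -0.90 (limma adjusted p = 0.0235), and DESeq2 and the Y-linked term also called P3 to P12. Without both P6 libraries both passed too, at -0.67 and -0.37 (limma adjusted p = 0.00145 and 0.0307). In that fit 7811 of the 13961 genes tested were called for P3 to P24. Ldb3 had 23369 and 27054 (P3), 24565 and 18198 (P6), 19509 and 18544 (P12) and finally 22097 and 25535 (P24). Its stage ranges overlapped in a chain from P3 to P12, with changes of -0.40 for P3 to P12 (limma adjusted p = 0.147) and -0.08 for P3 to P24 (95% interval -0.51 to 0.35, limma adjusted p = 0.768).

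**Figure D3:**
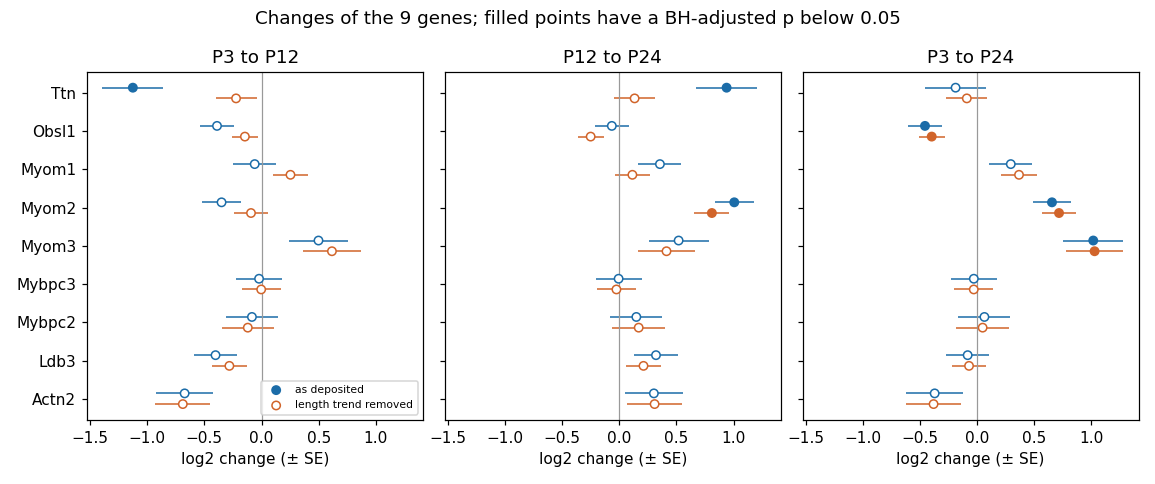
Log2 change (x axis, bars ± SE) of the 9 genes in 3 stage comparisons from the limma fit, on the deposited values (blue) and with the smooth length trend removed (orange), filled where the adjusted p was below 0.05. Ttn moves from -1.13 to -0.22 for P3 to P12 when the trend is removed, while Myom2 stays filled for P12 to P24 at 1.01 and 0.81.

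The P6 libraries weighed on these calls. For P3 to P6, 0 of 9 genes passed in limma, 4 had an unadjusted p under 0.05, edgeR and voom called 0 and DESeq2 called Ttn. For P6 to P12, 0 passed, 1 had an unadjusted p under 0.05, edgeR and voom called 0 and DESeq2 called Myom2. Over any stage, limma's F test called Ttn (adjusted p = 0.0151) and Myom2 (adjusted p = 0.00702), 2 of 9 against 34.9% of all genes. With the smooth or straight length trend removed the call of Ttn was lost (limma adjusted p = 0.0556 and 0.0587) and Myom3 was called (0.0416 and 0.0333). The straight trend also called Myom1 (limma adjusted p = 0.0475). With the stepwise trend removed Ttn stayed called (limma adjusted p = 0.00486) and Myom3 was called (0.0421). Without both P6 libraries the F test called 7 of 9, all but Mybpc3 and Mybpc2, against 70.3% of all genes in that fit, so the members' share is near the background. In that fit Actn2 fell from P3 to P12 (-0.67, limma adjusted p = 0.00145), as did Ldb3 (-0.40, limma adjusted p = 0.0102), and 7006 genes (50.2%) were called for P3 to P12 in place of 3432. Myom1 (0.355) and Ldb3 (0.32) rose from P12 to P24 (limma adjusted p = 0.0352 and 0.035), where 6028 of 13961 genes tested were called in place of 2297 of 14055. Leaving out 1 library in turn (8 fits), the Ttn change ran from 0.76 to 1.11 for P12 to P24 and from 0.56 to 1.31 for P6 to P24. Both of these calls held only in fits without a P6 library. For P3 to P12 the Ttn change ran from -1.18 to -1.07, and the call was lost without any 1 of its own P3 or P12 libraries. Myom2 passed in 5 of 8 fits for each of its 2 calls, being lost without P24 replicate 1 or P24 replicate 2 in both, without P12 replicate 2 for P12 to P24, and without P3 replicate 1 for P3 to P24. Myom3 passed in 5 of 8, lost without P3 replicate 1 or either P24 library, and Obsl1 in 2 of 8, both without a P6 library.

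Ratios of 2 genes within a library do not depend on how libraries are scaled. The FPKM of Myom2 was 0.728 and 0.777 of that of Myom1 at P3, 1.17 and 1.27 (P6), 0.602 and 0.629 (P12) and finally 1.09 and 0.857 (P24). Myom2 thus outweighed Myom1 per length in both P6 libraries and in P24 replicate 1. An exact permutation test over the 105 ways to divide 8 libraries into 4 pairs, 1-sided on F, cannot go below p = 0.00952. Of 7 ratios, adjusted together by Benjamini-Hochberg, 3 of the 6 described here passed: Myom2 to Myom1 (permutation p = 0.00952, adjusted 0.0444), Ttn to Myom1 and Ttn to Actn2 (each permutation p = 0.019, adjusted 0.0444). With the smooth length trend removed none of the 3 passed, with adjusted permutation p = 0.0667, 0.25 and 0.453. Among 7 ratios, 1 at the smallest p has an adjusted p of 0.0667 when no other is low. A ratio therefore cannot pass alone, here or with 1 library left out. A miss at this floor, such as that of Myom2 to Myom1, does not show that its difference went away. Ttn to Myom1 and Ttn to Actn2, at adjusted permutation p = 0.25 and 0.453, lay above the floor, so this limit does not cover their misses.

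**Figure D4:**
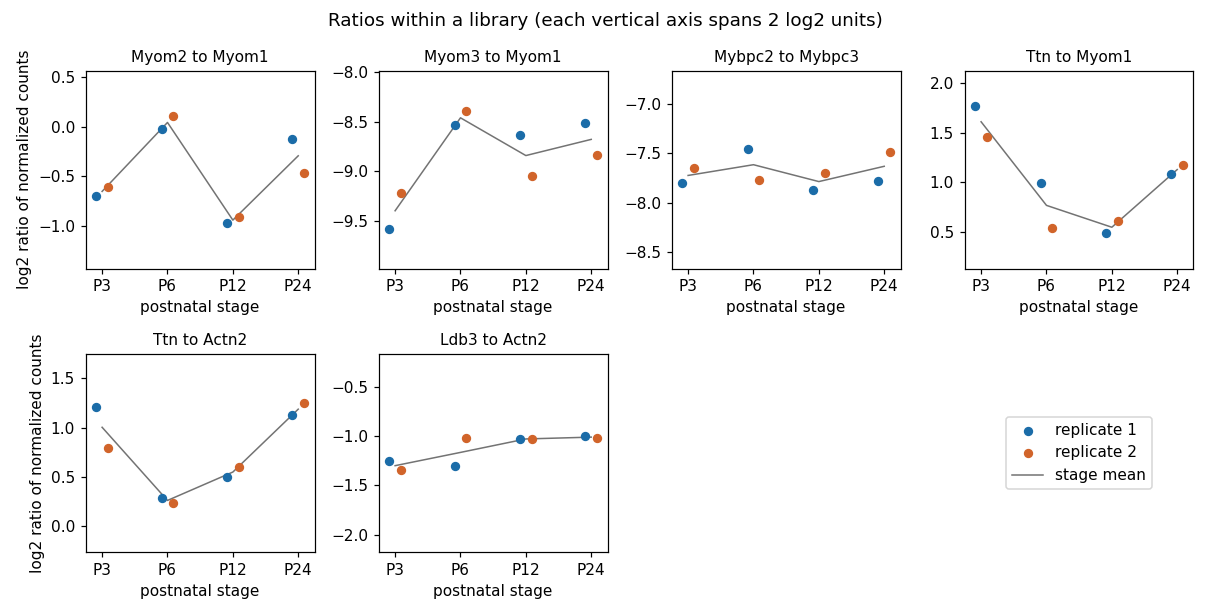
Log2 ratio of normalized counts of 2 genes within each library (y axes, each spanning 2 log2 units) by stage, with 1 point a library and a line through the means. Myom2 to Myom1 is highest at P6 and lowest at P12, and Ttn to Actn2 is lowest at P6, with a mean of 0.26 against 1.19 at P24.

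Other genes of the Z-disc moved in both directions. Of 26 listed Z-disc genes, 25 were tested, and 10 rose and 7 fell from P3 to P24, with a median of 0.36 against -0.02 over all genes, of which 18.7% rose and 18.2% fell. The balance turned with scaling by total reads alone (7 rose, 10 fell) and by quantiles (7 rose, 8 fell). The largest rises were in Myot (myotilin, which binds alpha-actinin; log2 2.96, limma adjusted p = 4.1e-05) and Xirp2 (log2 2.89, limma adjusted p = 1.58e-05). Myoz1, the calsarcin of fast skeletal muscle, fell by 3.63 (limma adjusted p = 8.02e-05) from 79.1 and 86.2 to 5.42 and 6.15 normalized counts, and Pdlim3 fell by 1.59 (limma adjusted p = 0.000705). The non-muscle alpha-actinins Actn1 and Actn4 fell by 1.53 and 0.78 (limma adjusted p = 0.00025 and 0.00369). A link to the fibroblast markers, of which 5 of 7 fell and 1 rose, was not tested. By single steps, Xirp2 rose from P3 to P6 by 1.18 (limma adjusted p = 0.0482), and Tcap, the titin cap of the Z-disc, rose from P6 to P12 by 1.23 (limma adjusted p = 0.0363). From P12 to P24 Xirp2 (1.53), Myot (1.50), Cryab (0.88), Des (0.83), Synpo2 (0.78), Nrap (0.78) and Myoz2 (0.73) rose, while Myoz1 (-2.31) and Pdlim1 (-0.56) fell.

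Of 15 genes of the M-band, titin partners and relatives, 12 were tested, and 6 rose and 1 fell from P3 to P24, with a median of 0.54, beside the same 18.7% and 18.2% of all genes. Cmya5 (myospryn) rose by 1.79 and Ank1, whose short muscle form binds titin, by 1.62 (limma adjusted p = 0.000576 and 5.81e-05), and Fhl1 fell by 0.80 (limma adjusted p = 0.00149). By single steps, Ank1 rose by 0.91 from P3 to P6, and Cmya5 rose by 1.54 from P12 to P24. Scaled by total reads alone, 2 of these genes rose in place of 6. Of 14 ligases, chaperones and titin-bound ankyrin-repeat genes, 13 were tested, and 5 rose and 4 fell, with a median of 0.15, beside those shares. Trim54 (a MuRF ubiquitin ligase of the sarcomere) rose by 4.02 and Ankrd23 by 1.92 (limma adjusted p = 9.98e-07 and 7.18e-05). Trim55, its sister MuRF gene, changed by -1.28 and Ankrd1 by -1.20 (limma adjusted p = 0.000211 and 0.00486).

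**Figure D5:**
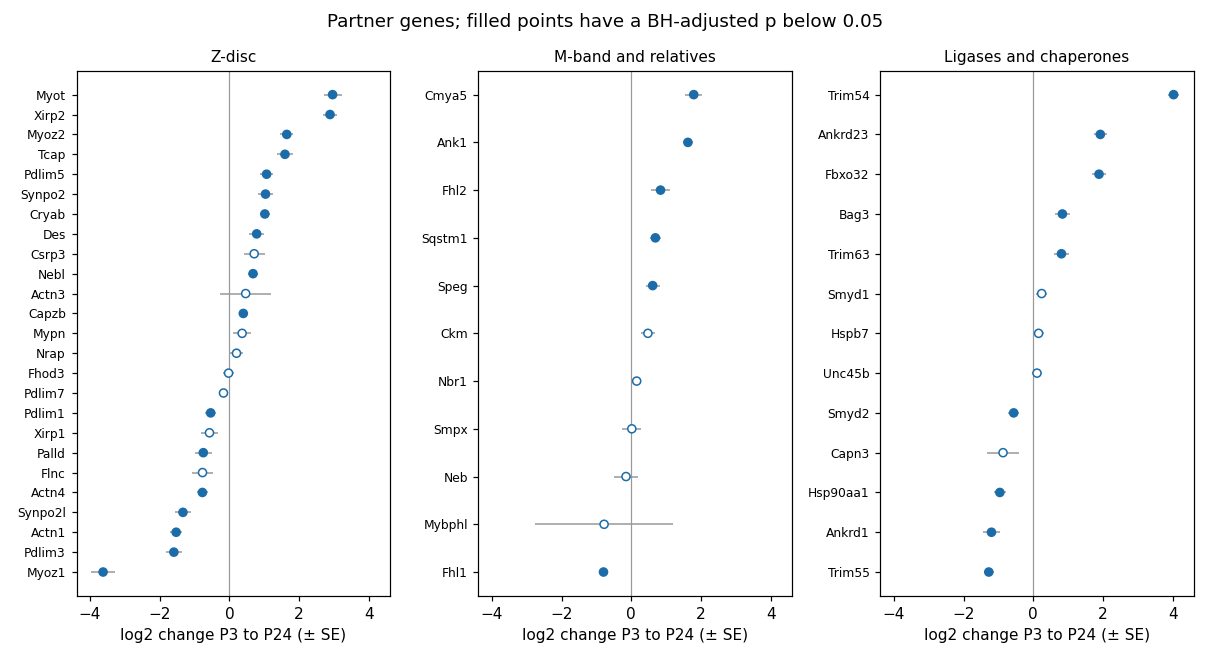
Log2 change from P3 to P24 (x axis, bars ± SE) of tested genes in the 3 partner lists, filled where the limma adjusted p was below 0.05. Trim54 lies furthest right at 4.02 and Myoz1 furthest left at -3.63.

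Genes with the most similar course over the 8 libraries were sought among 11062 genes with a mean normalized count of at least 100, by the correlation of log2 values, given as a description. Closest to Ttn were Emc1 (r = 0.99), Gtf3c2 and Herc3, and to Obsl1 Prr3 (0.99), Zfp512b and Nfrkb. Closest to Myom1 were Gigyf1 (0.96), Chd6 and Rffl, to Myom2 Sord (0.98), Kctd1 and Grk5, and to Myom3 Bend7 (0.97), Stat6 and Phtf2. Closest to Ldb3 were Gys1 (0.97), Hk1 and Slc12a7, and to Actn2 Mdn1 (0.98), Pigs and Ubap2l. Mybpc3 (Kdm4c 0.89, Fcsk, Btrc) and Mybpc2 (Lrch3 0.85, Mapkbp1, Fcsk) had looser neighbours. All points share the libraries' length trend and depth.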

How the data were processed

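RNA was measured in 8 ventricle libraries, 2 at each of P3, P6, P12 and P24. Per the labels' protocols, RNA was taken with QIAzol and a miRNeasy kit, treated with DNase, and made into poly(A) libraries. Per the submitters' processing notes, the tools included Trim Galore 0.6.4, STAR 2.7.3a, HTSeq 0.11.2 and DESeq2 1.32.0, with GRCm39. Whether counting used strand is not given in the sources used here. Reads of overlapping genes may therefore be shared. The authors deposited 2 values a gene and library: a normalized count (a signal, read counts divided by a library factor) and FPKM. Dividing the deposited normalized count by the value of 1 read gave whole reads for 100% of values (tolerance 0.001). Depth was the sum of these reads.

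The main test was limma 3.58.1 in R 4.3.3 (trend, stage as a factor, no replicate term) on log2(normalized count + 1), so fold changes of low genes are understated. It had 4 residual degrees of freedom. edgeR 4.0.16, DESeq2 1.42.0 and limma-voom on the recovered reads were alternatives, with other scalings, filters, pseudocounts (0.5 and 10), length corrections, a replicate block and left-out libraries. The scripts were tested on simulated data. Named partner genes were the 2 largest called rises and falls of each list for P3 to P24, and any called Z-disc or M-band gene at a single step; Actn1 and Actn4 were added after their values were seen. The 9 genes, the lists and the motifs were chosen with earlier results of these data known. Replicate numbers do not pair the samples: the correlations of replicate differences between stages ran from -0.139 to 0.324. A listed gene and a ratio that uses it entered the counts and adjustments but are not reported here.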

Additional observations from a re-analysis of the deposited data

How the results depend on the processing

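Beside values given with the results above, these limits apply. With 2 libraries a stage, 1 library decides many calls, and a fit without one of a pair assumes that the lone library varies like the other stages. Without 1 library in turn, genes called ran from 6 to 4444 for P3 to P6, 0 to 5732 for P6 to P12, 518 to 6031 for P12 to P24, 659 to 7017 for P3 to P12, 1788 to 6554 for P6 to P24, 3018 to 7820 for P3 to P24 and 2350 to 9981 over any stage, the highest being without a P6 library, and 0 to 7 of the 9 genes were called over any stage. The counts that rose ran from 6 to 12 for the Z-disc, 2 to 7 for the M-band and 3 to 5 for the ligases. P24 minus P3 log2 ratios ran from 0.19 to 0.53 for Myom2 to Myom1, -0.64 to -0.33 for Ttn to Myom1, -0.03 to 0.39 for Ttn to Actn2 and -0.05 to 0.24 for Mybpc2 to Mybpc3, and none of the 7 ratios passed in any of these fits. Log2 changes that crossed 0 were those of Ldb3 (-0.19 to 0.02), Mybpc2 (-0.17 to 0.30) and Mybpc3 (-0.14 to 0.08) from P3 to P24 and Ttn from P6 to P12 (-0.38 to 0.38). Without both P6 libraries, 6028 genes were called for P12 to P24, 7006 for P3 to P12, 7811 for P3 to P24 and 9814 over any stage, with 7 of the 9.

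The 118 genes called for P3 to P6 became 62 with scaling by total reads, 70 with no filter, 302, 330 and 285 with the smooth, straight or stepwise length trend removed, and 515 with DESeq2. The 317 for P6 to P12 became 189 with no filter, 573, 593 and 558 with those trends removed, 874 with DESeq2 and 488 with a term for Y-linked reads. With the replicate block, P6 to P12 gave 512, and with the block and the smooth trend 444 for P3 to P6, 830 for P6 to P12, 4 of the 9 genes over any stage, and 0.43 for Ttn from P6 to P12; the block alone changed no call of the 9 genes. Quantile scaling also called 4 of the 9, left 3 M-band genes risen, and turned Myom1 from P3 to P24 to -0.04 and Myom2 from P6 to P24 to -0.03. Scaling by total reads moved the median gene by -0.36 from P3 to P24, left 2 M-band genes and 3 ligases risen, and gave -0.05 for Myom1 and -0.28 for Mybpc2 from P3 to P24 and -0.02 for Myom2 from P6 to P24. It cut the share of calls that were rises from 50.6% to 23.2% for P3 to P24, from 50.2% to 19.1% for P12 to P24, from 46.9% to 33.8% for P3 to P12 and from 48.8% to 23.9% for P6 to P24. For P3 to P6 that share, 78%, was 60.2% with DESeq2, 67% with voom, and 66.6%, 66.7% and 67.4% with the length trends removed. The Ttn change from P6 to P12, -0.00, was 0.05 with TMM, 0.04 with voom, and 0.43, 0.68 and 0.26 with the smooth, straight and stepwise trends removed. The straight trend also gave 0.22 for Ttn, 0.02 for Mybpc3 and 0.01 for Ldb3 from P3 to P24, and the Y-linked term -0.03 for Mybpc2. The smooth trend left the P24 minus P3 ratios at 0.35 (Myom2 to Myom1), -0.46 (Ttn to Myom1) and 0.29 (Ttn to Actn2), not past the threshold. The Ttn rise from P12 to P24 was also lost with scaling by total reads, quantile and TMM scaling, no filter and edgeR (adjusted p up to 0.108 among these). The Ttn rise from P6 to P24 was lost with scaling by total reads, quantile scaling and no filter, Obsl1 with the straight trend (-0.33, adjusted p = 0.0515), Myom2 from P3 to P24 with quantile scaling and Myom3 with scaling by total reads. The causes were not tested.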
